A study of Homo sapiens with 66 samples.

Results

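Aminoacyl-tRNA synthetases were followed as 1 set of 33 genes, 18 for cytosolic and 15 for mitochondrial enzymes, out of the 57820 genes in the count tables. The members were taken from a list of names and matched to the tables by Ensembl identifier, by a rule that uses no measured value. All 33 were found in both studies.

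Each synthetase joins 1 amino acid to its matching tRNA, the step that ties the genetic code to protein synthesis. The cytosolic and the mitochondrial enzymes are both encoded in the nucleus, mostly by separate genes, and several cytosolic ones sit together in the multisynthetase complex. When cells are short of amino acids or the integrated stress response is active, the transcription factor ATF4 drives many cytosolic synthetase genes together with genes of amino acid uptake and synthesis. WARS1, the tryptophanyl enzyme, is in addition a known interferon-stimulated gene.

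RNA was measured in THP-1 cells, a human monocytic leukaemia line made Cas9 transgenic, after nucleofection of gRNAs against ADAR, the enzyme that deaminates adenosines in dsRNA, and hnRNPC, a nuclear protein that binds uridine tracts and keeps Alu-derived sequence out of mature mRNA. In study 1, cells of a clone that lacked STING received 2 nontarget gRNAs (CTRL), a GFP gRNA, the ADAR gRNA, the hnRNPC gRNA or both (ADAR_hnRNPC, the doubly targeted cells), and whole-cell RNA was taken on days 3, 4 and 5 in 3 replicates. Further CTRL cells received IFN-α for the last 24 h before day 4 (IFNa). In study 2, cells of a WT clone, with STING intact, were taken on day 4 in 2 replicates of the CTRL, ADAR, hnRNPC and ADAR_hnRNPC groups, as total RNA and as the digitonin-soluble, cytosolic fraction. The digitonin-insoluble fraction, labelled nuclear and holding mitochondria as well, was used for hnRNPC-targeted cells only. Each study rests on 1 clone, targeting was done in bulk cultures, and the study describes its replicates as independent experiments, which the labels do not detail.

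The 48 libraries of study 1 held 95107690 to 152829008 counted reads and the 18 of study 2 held 49666958 to 73873756. The lowest count of any member was 342 in study 1 and 16 in study 2, both for SARS2. HNRNPC fell from a mean of 832 CPM (counts scaled to library size) in CTRL to 317 in hnRNPC-targeted and 395 in doubly targeted cells on day 5. ADAR mRNA is a weak check of its own targeting: on day 5 it was at 394 CPM in CTRL, 387 in ADAR-targeted and 1322 in doubly targeted cells, whereas in total RNA of study 2 it was at 864, 506 and 788 CPM. The monocytic markers CD33 (30.3 to 73.2 CPM) and SPI1 (42.3 to 156 CPM) were present in all libraries. CTRL replicate 3 and ADAR replicate 3 of day 5 stood apart: 21 of 22 genes of the amino acid response were above both other replicates. The median log2 ratio to the mean of the other replicates was 0.961 and 0.526. Replicate 3 had the most such genes in every group of study 1, with 21 of 22 also in doubly targeted cells of day 4. In those other groups its median ratio was at most 0.217. CTRL total replicates 1 and 2 of study 2 also differed, with SARS1 at 130 and 83.3 CPM. The comparisons with CTRL of 1 day share the same CTRL libraries and are not independent. Results that rest on the libraries that stood apart are given with and without them. In bulk RNA, fewer cells with a transcript and less transcript per cell cannot be told apart.

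Promoters are shown first because 4 of the cytosolic members that rose in doubly targeted cells carry a known short motif of the amino acid response. RefSeq promoter windows (GRCh38.p14, 250 bases before to 50 after a gene's start) were given for 28 of the 33 members, not for AARS2, LARS1, VARS1, VARS2 and YARS1. The core of the amino acid response element, TGATG followed by any base and AA, was searched on both strands and was found in 6 of 15 cytosolic members (AARS1, CARS1, GARS1, IARS1, NARS1 and TARS1) and 1 of 13 mitochondrial members (YARS2). It was found in at least 1 window of 4.457% of all 27305 genes. The core of the interferon-stimulated response element, GAAA, any 2 bases and GAAA, was found in WARS1 and EARS2, against 4.376% of all genes. The windows below are printed 5′ to 3′ on the gene's strand, with the match in capitals, for the members whose levels the results turn on and for the short matches next to a start.
CARS1 (chr11:3057407-3057436, minus strand): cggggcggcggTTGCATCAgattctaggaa
TARS1 (chr5:33440956-33440985, plus strand): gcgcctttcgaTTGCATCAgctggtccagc
NARS1 (chr18:57621804-57621833, minus strand): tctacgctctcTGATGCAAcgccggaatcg
GARS1 (chr7:30594758-30594877, plus strand): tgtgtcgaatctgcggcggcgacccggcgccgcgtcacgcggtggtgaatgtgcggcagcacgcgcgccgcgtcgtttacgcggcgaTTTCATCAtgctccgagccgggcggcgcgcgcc
AARS1 (chr16:70289614-70289733, minus strand): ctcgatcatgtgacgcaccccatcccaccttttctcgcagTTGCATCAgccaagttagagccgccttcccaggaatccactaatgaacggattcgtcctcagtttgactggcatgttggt
WARS1 (chr14:100375348-100375467, minus strand): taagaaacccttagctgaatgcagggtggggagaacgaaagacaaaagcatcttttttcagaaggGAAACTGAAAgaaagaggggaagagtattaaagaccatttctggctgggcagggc
A match is a description of the letters, not evidence of a bound site.

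In CARS1, TARS1 and NARS1 the matched stretch spans or follows the annotated start, and in GARS1 and AARS1 it lies upstream. NARS1 has the same core and was among the members that fell in doubly targeted cells on day 5. IARS1 and YARS2 carry it upstream and were not among the members that rose. WARS1, SARS1, KARS1, HARS2 and FARS2 rose on day 5 and have a window without this core.

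Targeting hnRNPC alone lowered about as many members on day 3 as on day 5. On day 3, 3 members were higher and 16 lower than in CTRL at an adjusted p of at most 0.05 (edgeR quasi-likelihood test), beside 12.6% higher and 25.4% lower of all genes tested. On day 4, 4 were higher and 15 lower (23.4% and 28% of all genes), and on day 5, 3 were higher and 17 lower (29.6% and 35.2%). The share of members that fell was above that of all genes on each day, and the median log2 fold change on day 5 was −0.22 in members and −0.03 in all genes. Of the members lower on day 5, 9 were cytosolic and 8 mitochondrial, and 1 was at least 2-fold lower, a change that 3.74% of all genes showed.

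That member was LARS1, the cytosolic leucyl enzyme, which in the cell also reports leucine to the mTORC1 pathway. LARS1 was at 318, 340 and 360 CPM in CTRL on day 5 and at 127, 141 and 137 CPM in hnRNPC-targeted cells (log2 fold change −1.33 ± 0.056 SE, adjusted p = 1.5e-21). No hnRNPC-targeted library reached the lowest CTRL library. The change was −0.37 ± 0.055 on day 3 and −0.74 ± 0.055 on day 4, so LARS1 was lower on every day sampled. In ADAR-targeted cells LARS1 was at 309, 331 and 320 CPM.

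FARSB and FARSA, which encode the subunits of the cytosolic phenylalanyl enzyme, both fell. FARSB was at 67, 70.8 and 63.4 CPM in CTRL and at 35.9, 37.3 and 36.6 CPM in hnRNPC-targeted cells on day 5 (−0.87 ± 0.067, adjusted p = 6.7e-14). FARSA had its larger falls against CTRL earlier, with log2 fold changes of −0.63 ± 0.072 on day 3 and −0.74 ± 0.073 on day 4 and −0.42 ± 0.072 on day 5. On day 3 it was at 188, 189 and 193 CPM in CTRL and at 118, 120 and 131 CPM after hnRNPC targeting. By day 5 it was lower in CTRL too, at 150, 143 and 135 CPM, against 113, 102 and 104 CPM after hnRNPC targeting. VARS1, the cytosolic valyl enzyme, was at 253, 256 and 266 CPM in CTRL and at 162, 164 and 178 CPM in hnRNPC-targeted cells on day 3 (−0.62 ± 0.082), and the groups of all 3 genes were separate.

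VARS2, the mitochondrial valyl enzyme, was lower on all 3 days, by log2 fold changes of −0.78 ± 0.11, −0.91 ± 0.11 and −0.81 ± 0.11. On day 5 it was at 8.96, 9.96 and 8.8 CPM in CTRL and at 6.38, 4.56 and 4.86 CPM in hnRNPC-targeted cells. Of the exonic bases of VARS2, 62.98% are shared with other genes, and its values are uncertain for that reason, as are those of SARS2 (48.16%). Both VARS genes lie in the MHC region of chromosome 6, where haplotypes differ, and the part of this in the counts was not tested.

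The members that rose after hnRNPC targeting were few and the changes small. HARS2, the mitochondrial histidyl enzyme, was at 44.4, 43.4 and 43.2 CPM in CTRL and at 64, 59.5 and 57.3 CPM in hnRNPC-targeted cells on day 5 (0.47 ± 0.055, adjusted p = 3e-09), without overlap. It had risen by 0.21 ± 0.055 on day 3 and 0.43 ± 0.055 on day 4. HARS1, its head-to-head neighbour for the cytosolic enzyme, was at 54.1, 51.6 and 51.4 CPM in CTRL and at 68.8, 63.6 and 67.6 CPM (0.35 ± 0.042) on day 5. AARS2, the mitochondrial alanyl enzyme, was at 82, 79.8 and 74 CPM in CTRL and at 114, 105 and 90.3 CPM (0.39 ± 0.066). TARS1, the cytosolic threonyl enzyme, was higher on day 3 (0.31 ± 0.075) and day 4 (0.44 ± 0.075), and RARS2, the mitochondrial arginyl enzyme, changed by 0.15 ± 0.042 and 0.19 ± 0.042 on those days.

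The day 5 counts depend in part on CTRL replicate 3. Without it, 7 members were higher and 15 lower after hnRNPC targeting, beside 3674 and 4347 of the 13193 genes tested. AARS1 (0.26), CARS1 (0.36), TARS1 (0.29) and YARS1 (0.15) were then among the higher members. GARS1, which had stood at −0.54 ± 0.13, no longer passed the test.

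**Figure D1:**
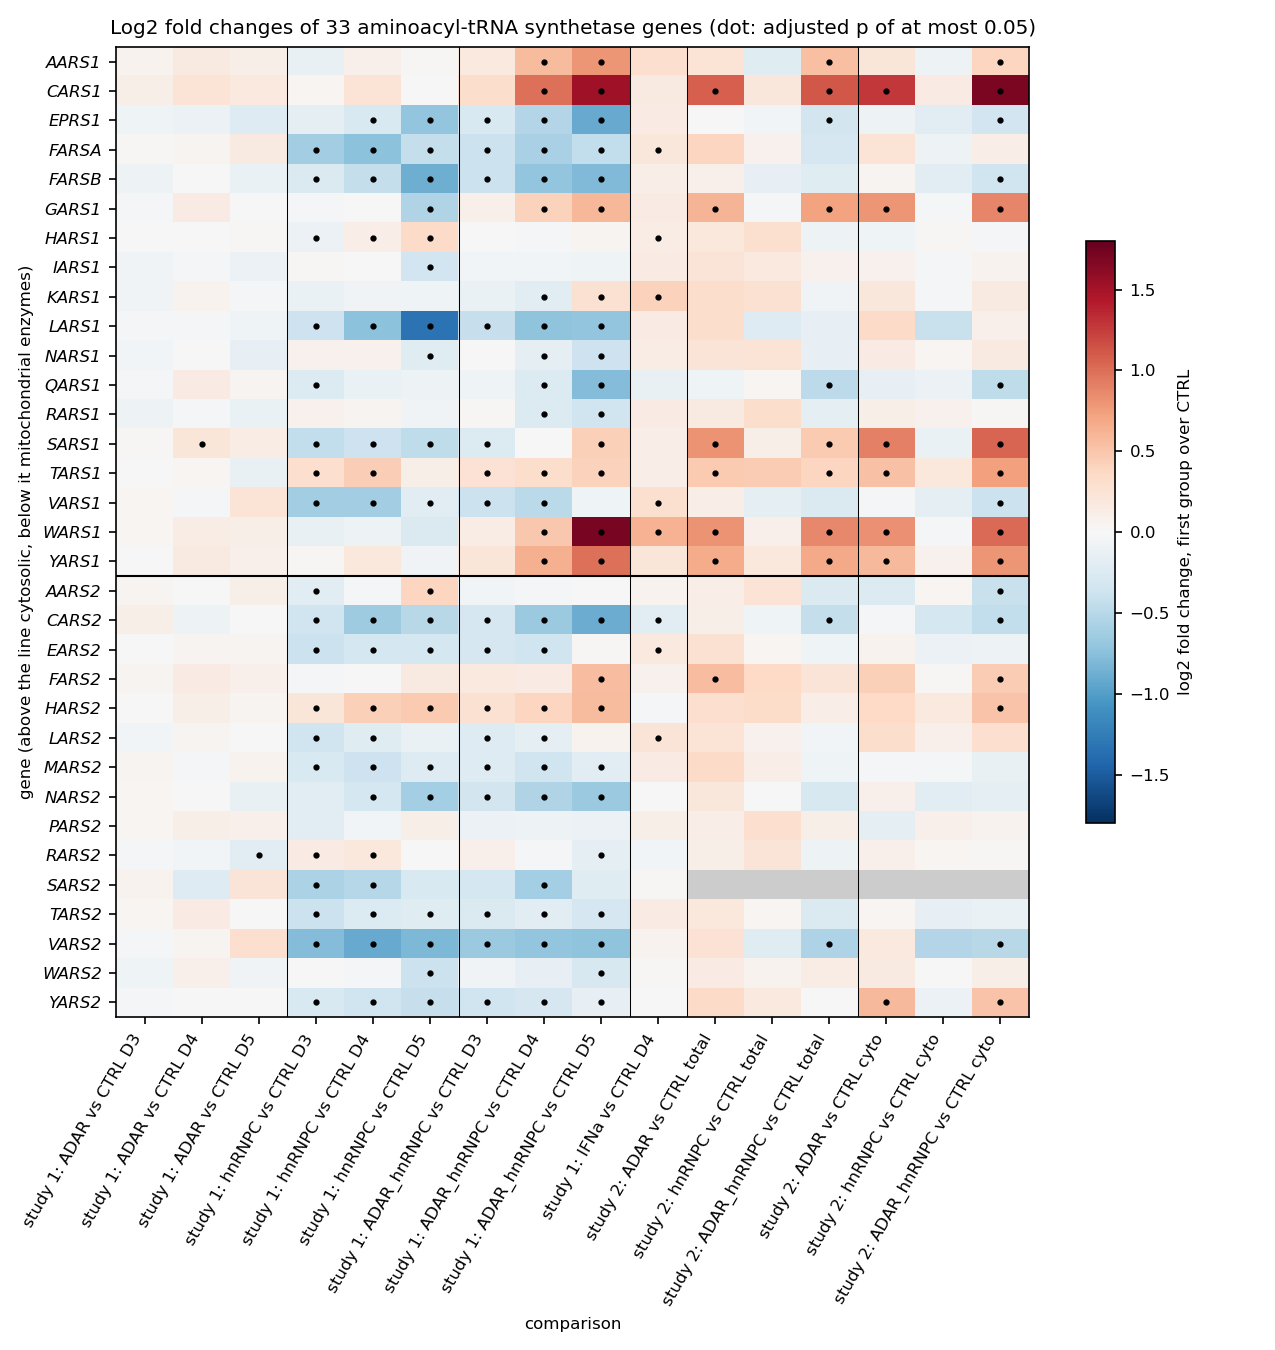
Log2 fold change of the 33 synthetase genes (rows, cytosolic above mitochondrial) in 16 comparisons (columns) of both studies, as a colour scale, with a dot where the adjusted p is at most 0.05 and grey where SARS2 was not tested. The strongest reds are WARS1 in doubly targeted cells on day 5 (1.70) and CARS1 in the cytosolic fraction of doubly targeted cells of study 2 (1.69), and the strongest blue is LARS1 in hnRNPC-targeted cells on day 5 (−1.33).

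In doubly targeted cells a group of cytosolic synthetases rose from day 4 on, while other cytosolic members fell and the mitochondrial members stayed mostly lower. On day 3, 2 members were higher and 14 lower than in CTRL (12% and 16.7% of all genes), and with the replicate number as a block 5 were higher. On day 4, 7 were higher and 18 lower (25.5% and 31.5% of all genes), and on day 5, 10 were higher and 15 lower (34.5% and 39%). Of the 18 cytosolic members, 6 were higher and 9 lower on day 4 (median −0.11), and 8 were higher and 7 lower on day 5 (median −0.01). Of the 15 mitochondrial members, 2 were higher and 8 lower on day 5. Taken over all members, the share that rose on day 5 was below that of all genes, and the median was −0.11 in members and −0.04 in all genes.

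WARS1 and CARS1, the cytosolic tryptophanyl and cysteinyl enzymes, were at least 2-fold higher on day 5, as were 9.41% of all genes tested. WARS1 was at 68.1, 73.5 and 114 CPM in CTRL and at 254, 268 and 309 CPM in doubly targeted cells (1.70 ± 0.13, adjusted p = 1.5e-14). CARS1 was at 42.7, 39.8 and 75.4 CPM in CTRL and at 147, 146 and 161 CPM (1.52 ± 0.13, adjusted p = 4e-13). In both genes CTRL replicate 3 was the highest control and lay well below the lowest doubly targeted library. Without that replicate the changes were 1.97 for WARS1 and 1.87 for CARS1, and against the GFP-targeted cells they were 1.85 and 1.78.

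CARS1 and WARS1 were followed back to the earlier days. On day 4 CARS1 was at 79.4, 73.3 and 84.6 CPM in doubly targeted cells against 39.2, 39.2 and 40.7 CPM in CTRL (0.99 ± 0.13), and on day 3 at 51.6, 52.3 and 50 CPM against 40.7, 39.4 and 43.2 CPM (0.32, adjusted p = 0.058). WARS1 was at 110, 117 and 120 CPM on day 4 against 79.5, 81.9 and 86.4 CPM (0.49 ± 0.13), and on day 3 the groups overlapped, at 105, 100 and 113 CPM against 92, 92.9 and 105 CPM.

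YARS1 and AARS1, the cytosolic tyrosyl and alanyl enzymes, and GARS1, the glycyl enzyme of cytosol and mitochondria, moved in the same direction. YARS1 was at 132, 139 and 202 CPM in CTRL on day 5 and at 313, 314 and 311 CPM in doubly targeted cells (0.99 ± 0.088). It had been at 132, 132 and 132 CPM on day 4 against 202, 200 and 216 CPM (0.64 ± 0.088). AARS1 was at 193, 207 and 311 CPM in CTRL on day 5 and at 418, 417 and 402 CPM (0.80 ± 0.12), and on day 4 at 202, 196 and 212 CPM against 285, 298 and 323 CPM (0.57 ± 0.12). GARS1 was at 122, 131 and 238 CPM in CTRL on day 5 and at 245, 244 and 252 CPM (0.60 ± 0.13). In YARS1 and AARS1 the groups were well apart, whereas in GARS1 CTRL replicate 3 came close to the doubly targeted libraries. Without it, 4 members were at least 2-fold higher, as were 1283 of the 13193 genes tested. They were AARS1 (1.04) and YARS1 (1.21) besides WARS1 and CARS1, and GARS1 stood at 0.97.

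The 5 other members that rose on day 5 did so by less, HARS2 (0.57 ± 0.055), FARS2 (0.55 ± 0.08), SARS1 (0.43 ± 0.053), TARS1 (0.42 ± 0.075) and KARS1 (0.28 ± 0.058). SARS1, the cytosolic seryl enzyme, had been lower on day 3 (−0.24 ± 0.053).

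Among the members that fell, EPRS1, the fused glutamyl-prolyl enzyme, was at 727, 820 and 993 CPM in CTRL on day 5 and at 466, 455 and 432 CPM in doubly targeted cells (−0.91 ± 0.09, adjusted p = 2.2e-11). CARS2, the mitochondrial cysteinyl enzyme, was at 71.4, 68.8 and 62.4 CPM and at 36.5, 35.7 and 37.3 CPM (−0.89 ± 0.059), so that the cytosolic and mitochondrial genes for the same amino acid moved in opposite directions. FARSB was at 39.8, 38.2 and 38 CPM (−0.79 ± 0.067), against the CTRL values above. No doubly targeted library of these 3 genes overlapped CTRL. LARS1 was lower on day 3 (−0.42 ± 0.055), day 4 (−0.73 ± 0.055) and day 5 (−0.71 ± 0.055), VARS2 by −0.67 ± 0.11, −0.71 ± 0.11 and −0.72 ± 0.11, and FARSB on days 3 and 4 by −0.39 ± 0.067 and −0.71 ± 0.067. QARS1, the glutaminyl enzyme, fell late, from −0.24 ± 0.05 on day 4 to −0.78 ± 0.05 on day 5.

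**Figure D2:**
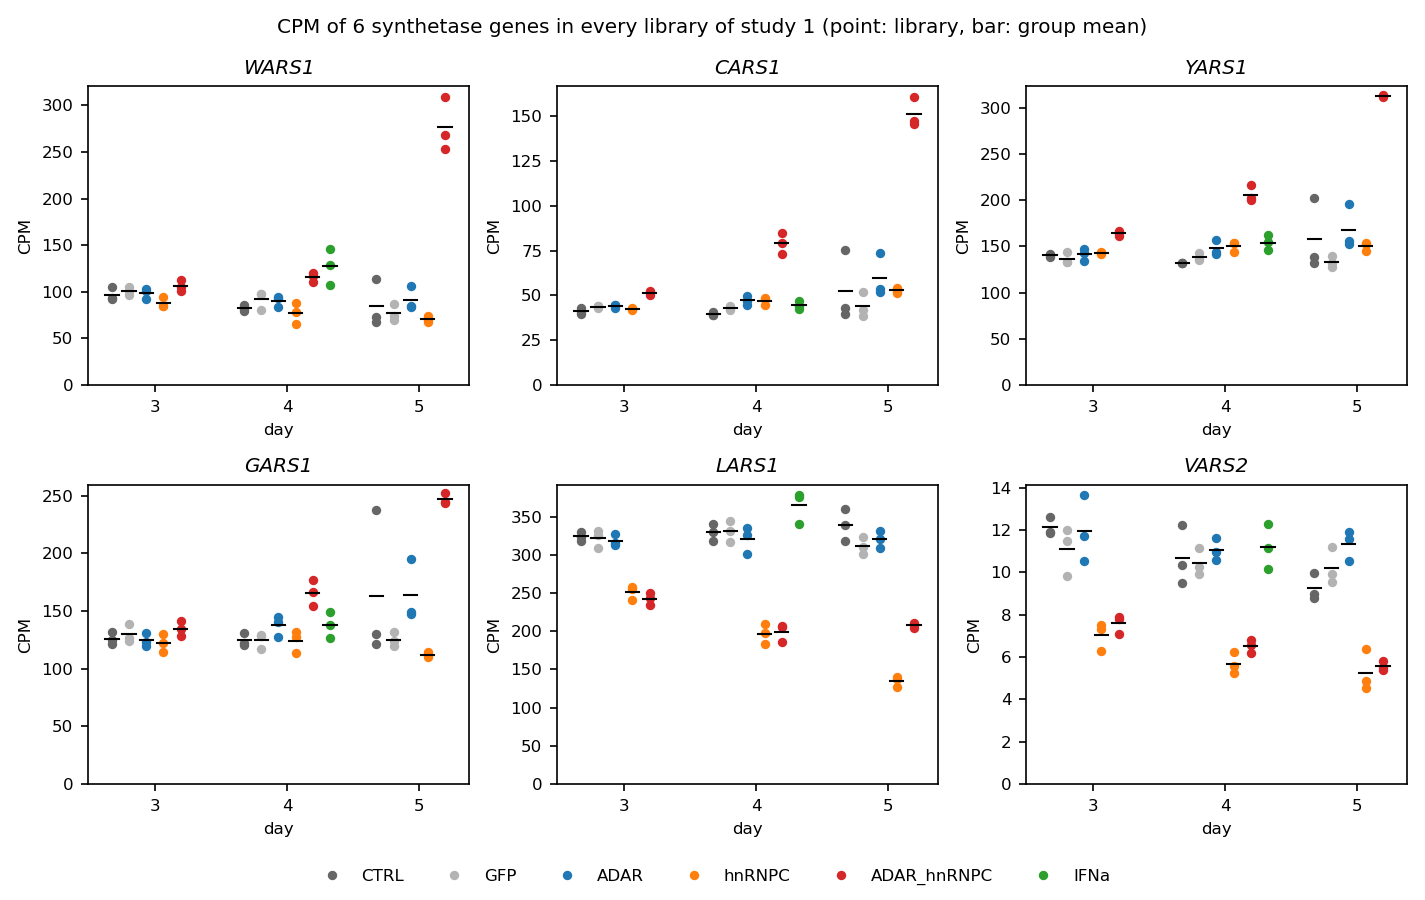
CPM of WARS1, CARS1, YARS1, GARS1, LARS1 and VARS2 in each library of study 1 (points) by day, coloured by gRNA group, with bars at the group means. On day 5 the doubly targeted libraries of WARS1 (254 to 309 CPM) and CARS1 (146 to 161 CPM) lie above all others, and the hnRNPC-targeted libraries of LARS1 (127 to 141 CPM) lie below all others.

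ADAR targeting alone changed few members in study 1. On day 3 no member passed the test in either direction (edgeR, 0% of all genes each way). No member had an unadjusted p under 0.05, against 535 of all 13193 genes tested. DESeq2 and limma-voom also called 0 on day 3. On day 4, 1 was higher (0.553% of all genes), SARS1 by 0.22 ± 0.053, and 0 were lower (0.091%). On day 5, 0 were higher by edgeR (4.45%; 3 by DESeq2 and 0 by limma-voom) and 1 was lower (4.78%), RARS2 by −0.19 ± 0.042. Over both directions 8 members had an unadjusted p under 0.05 on day 5, and with the replicate number as a block 2 were higher and 2 lower. Without CTRL replicate 3 there were 4 higher and 1 lower, beside 365 and 277 of all 13193 genes. Without it and ADAR replicate 3 there were 1 higher and 0 lower, beside 137 and 31 genes. The GFP gRNA gave 0 members higher (5.36%) and 1 lower (1.94%) on day 5, TARS1 by −0.27 ± 0.075. Without CTRL replicate 3 it gave 0 members lower, beside 22 of all 13193 genes.

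Whether the effect of hnRNPC targeting differed with ADAR targeting was tested as an interaction. On day 4, 0 members were higher and 2 lower than the sum of the single effects (4.68% and 6.4% of all genes), and leaving out single libraries gave 1 to 6 lower. With the replicate number as a block there were 2 higher and 5 lower, with no filter 2 and 0, and in a fit of day 4 alone 1 and 0. On day 5, 13 were higher and 4 lower (23.9% and 23.7%), 10 of the higher ones cytosolic, and 3 were higher by at least 2-fold (4.99%): WARS1 (1.86 ± 0.18), CARS1 (1.33 ± 0.18) and GARS1 (1.13 ± 0.18). The median was 0.38 in cytosolic members, 0.08 in all members and −0.03 in all genes. Without CTRL replicate 3 the values of WARS1, CARS1 and GARS1 were 1.59, 0.98 and 0.76. Then 15 members were higher, 4 lower and 1 higher by at least 2-fold, beside 2951, 2855 and 613 of all 13193 genes. Without it and ADAR replicate 3, WARS1 stood at 1.71, CARS1 at 1.16 and GARS1 at 0.90. QARS1 had the lowest interaction value, −0.74 ± 0.071.

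Set directly against hnRNPC-targeted cells on day 5, a comparison that uses no CTRL library, 14 members were higher and 8 lower in doubly targeted cells (29.3% and 32.8% of all genes), and 4 were at least 2-fold higher (5.82%). They were WARS1 (1.97 ± 0.13), CARS1 (1.52 ± 0.13), GARS1 (1.14 ± 0.13) and YARS1 (1.06 ± 0.088). The hnRNPC-targeted libraries were at 74.5, 70.1 and 68 CPM for WARS1, 54.3, 51.6 and 52.7 CPM for CARS1, 110, 112 and 114 CPM for GARS1, and 154, 152 and 145 CPM for YARS1. None overlapped the doubly targeted libraries. LARS1, lower in both groups than in CTRL, was at 205, 208 and 211 CPM in doubly targeted cells, above the hnRNPC-targeted ones (0.62 ± 0.055). SARS1 was at 89.3, 87.9 and 78.7 CPM after hnRNPC targeting and at 162, 154 and 160 CPM after both (0.89 ± 0.053).

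Against ADAR-targeted cells on day 5, 10 members were higher and 17 lower (32.8% and 37.8% of all genes). WARS1 was at 85.2, 83.7 and 106 CPM in ADAR-targeted cells (1.59 ± 0.13) and CARS1 at 53.8, 51.9 and 73.5 CPM (1.34 ± 0.13). VARS2 was at 11.6, 10.6 and 11.9 CPM in ADAR-targeted and at 5.4, 5.53 and 5.84 CPM in doubly targeted cells (−1.02 ± 0.11), the 1 member at least 2-fold lower (4.84% of all genes). Without CTRL replicate 3 and ADAR replicate 3, 10 members were higher and 15 lower, beside 4142 and 4803 of all 13193 genes. VARS2 stood at −0.99 and no member was 2-fold lower (636 genes were). WARS1 (1.71), CARS1 (1.52) and YARS1 (1.02) were at least 2-fold higher, as were 1030 genes.

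IFN-α, given for 24 h, changed 8 members. Of these, 7 were higher and 1 lower than in CTRL of day 4 (11.1% and 7.19% of all genes), 5 of the higher ones cytosolic, and the median was 0.14 in members and 0.02 in all genes. WARS1 was at 107, 129 and 146 CPM against 79.5, 81.9 and 86.4 CPM (0.62 ± 0.13, adjusted p = 0.00041). KARS1, the lysyl enzyme of cytosol and mitochondria, was at 279, 314 and 307 CPM against 217, 228 and 230 CPM (0.42 ± 0.058). In WARS1 and KARS1 the groups were apart. VARS1 was at 243, 306 and 275 CPM against 244, 212 and 219 CPM (0.29 ± 0.082), with 1 treated library inside the CTRL range. CARS2 was the lower one, at 72.9, 70.2 and 58.5 CPM against 77, 76.1 and 76 CPM (−0.18 ± 0.059). CARS1, YARS1, AARS1 and GARS1 did not pass the test, though small differences from CTRL were present. CARS1 was at 44.1, 42.5 and 47.1 CPM against 39.2, 39.2 and 40.7 CPM. YARS1 was at 146, 154 and 162 CPM against 132, 132 and 132 CPM. AARS1 was at 219, 242 and 290 CPM against 202, 196 and 212 CPM. These groups did not overlap, whereas those of GARS1 did. Over both directions 17 members had an unadjusted p under 0.05 by edgeR, beside 4094 of all 13193 genes tested. Of the 33 members 27 lay above 0, as did 7102 of all genes. The count of higher members ranged from 3, without CTRL replicate 2, to 9, without IFNa replicate 1.

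The genes of the amino acid response, ATF4 and its known targets, were listed to set beside the synthetases. In doubly targeted cells 10 of the 22 tested had risen by day 3, 16 by day 4 and 17 by day 5, when the median was 1.62, and 2 were lower at each time (of all genes, 12%, 25.5% and 34.5% were higher and 16.7%, 31.5% and 39% lower). ATF3 (5.35), NUPR1 (4.56), INHBE (3.62) and TRIB3 (3.20) had the highest values, and PYCR1 (−1.09) and ALDH18A1 (−0.96), both enzymes of proline synthesis, were lower. ATF4 mRNA itself was at 366, 353 and 369 CPM in doubly targeted cells and at 272, 272 and 522 CPM in CTRL (0.03 ± 0.14), so that CTRL replicate 3 lay above and the other two CTRL libraries below all doubly targeted ones. The GFP gRNA libraries were at 284, 260 and 319 CPM, and on day 4 ATF4 was higher in doubly targeted cells than in CTRL (0.40 ± 0.14). IFN-α left 2 of 22 higher and 0 lower (11.1% and 7.19% of all genes). After hnRNPC targeting on day 5, 7 were higher and 10 lower (29.6% and 35.2% of all genes). Without CTRL replicate 3, 12 were higher and 4 lower, beside 3674 and 4347 of all 13193 genes. Other factors of tRNA charging, among them the scaffolds of the multisynthetase complex and the tRNA exporter XPOT, split in doubly targeted cells on day 5 into 5 of 12 higher and 4 lower, beside 34.5% and 39% of all genes. SEPSECS, the last enzyme of selenocysteinyl-tRNA synthesis, was the 1 at least 2-fold higher (1.02).

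In the WT clone of study 2, members also rose with ADAR targeting alone. In total RNA 7 were higher and 0 lower than in CTRL (9.01% and 3.88% of all genes). CARS1 was at 93.8 and 89.5 CPM in ADAR-targeted and at 48.5 and 38 CPM in CTRL libraries (1.08 ± 0.12, adjusted p = 3.1e-05), the 1 member at least 2-fold higher (2.04%). WARS1 was at 165 and 171 CPM against 99.5 and 92.1 CPM (0.81 ± 0.11). SARS1 (0.80 ± 0.17), YARS1 (0.67 ± 0.13), GARS1 (0.62 ± 0.11), FARS2 (0.55 ± 0.16) and TARS1 (0.48 ± 0.13) made up the 7. Without CTRL total replicate 1, 19 members were higher, in a fit for which the share of all genes was not computed. Of the amino acid response genes, 17 of 23 were higher and 0 lower in the same comparison. In study 1 on day 5, 1 of 22 was higher with ADAR targeting, 16 without CTRL replicate 3 and 11 without it and ADAR replicate 3, with 0 lower each time. Of the 13193 genes tested, 587, 365 and 137 were higher and 630, 277 and 31 lower in these fits. In total RNA of study 2 the nuclear RNAs MALAT1 and NEAT1 were also lower in ADAR-targeted than in CTRL libraries, each by at least 2-fold (median −1.21), as were 6 of 8 mitochondrially encoded mRNAs (median −1.30 over the 8), and 30 of 32 members lay above 0. The part of these differences in the result was not tested. Clone and STING status differ between the studies, and the difference in the effect of ADAR targeting between them was not tested.

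In the cytosolic fraction ADAR targeting again gave 7 higher and 0 lower (16.1% and 6.6% of all genes), with CARS1 at 93.1 and 91.1 CPM against 37.8 and 38.3 CPM (1.27 ± 0.12) and no other member at 2-fold (4.6%). Without CTRL cytosolic replicate 2, 4 were higher. WARS1 was at 221 and 215 CPM against 127 and 119 CPM (0.83 ± 0.11), and SARS1 at 212 and 201 CPM against 117 and 103 CPM (0.91 ± 0.17).

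Targeting both genes gave 7 members higher and 4 lower in total RNA (12.4% and 22.2% of all genes). CARS1 was at 101 and 87 CPM (1.12 ± 0.12) and was the 1 at least 2-fold higher (3.36%), and WARS1 was at 190 and 158 CPM (0.86 ± 0.11). The lower ones were VARS2 (−0.56 ± 0.17), QARS1 (−0.47 ± 0.12), CARS2 (−0.42 ± 0.12) and EPRS1 (−0.33 ± 0.12), all of which were lower in study 1 on day 5 too. The other members lower in study 1 on that day were not among them. LARS1 was at 280 and 246 CPM against 329 and 254 CPM in CTRL, with overlap. Without CTRL total replicate 1 none of the members was lower at an adjusted p of at most 0.05 by edgeR, and without replicate 2, 8 were.

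In the cytosolic fraction of doubly targeted cells 10 members were higher and 7 lower (20.1% and 20.5% of all genes), and 3 were at least 2-fold higher (6.67%). CARS1 was at 128 and 117 CPM against 37.8 and 38.3 CPM (1.69 ± 0.12), SARS1 at 235 and 221 CPM against 117 and 103 CPM (1.05 ± 0.17), and WARS1 at 265 and 235 CPM against 127 and 119 CPM (1.02 ± 0.11). In each of the 3 both doubly targeted libraries were above both CTRL libraries. LARS1 and FARSA, lower in study 1, were not lower here. LARS1 was at 340 and 344 CPM against 331 and 309 CPM, and FARSA at 137 and 143 CPM against 136 and 122 CPM. The count of lower members fell to between 0 and 4 without any 1 of the 4 libraries, and that of higher members was 6 without doubly targeted replicate 1.

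Targeting hnRNPC alone changed no member in study 2 by edgeR at an adjusted p of at most 0.05, neither in total RNA (0 higher and 0 lower, 2.08% and 3.03% of all genes, 5 members with an unadjusted p under 0.05) nor in the cytosolic fraction (0 and 0, 0.725% and 1.88%, 3 members). limma-voom and DESeq2 each gave 1 higher in total RNA, and DESeq2 gave 1 lower in the cytosolic fraction. CARS1 was at 49 and 50.8 CPM in total RNA and at 40.6 and 43.6 CPM in the cytosol. LARS1 was at 236 and 260 CPM against 329 and 254 CPM in CTRL in total RNA, with overlap. In the cytosol it was at 215 and 269 CPM against 331 and 309 CPM, without overlap. With 2 replicates a group, no change cannot be told from a change too small to pass. Without CTRL total replicate 1, 11 members were higher in total RNA, in a fit for which the share of all genes was not computed.

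The fractions separated a small set of mitochondrial synthetase mRNAs from the rest. Over the 4 gRNA groups, 8 cytosolic against 8 total libraries, 11 members were higher and 6 lower in the cytosolic fraction (49.3% and 27.2% of all genes). Of the higher ones 7 were cytosolic and 4 mitochondrial enzymes, and of the lower ones 1 and 5. The 8 mitochondrially encoded mRNAs summed to 38 to 78.2 CPM in the cytosolic libraries and 2600 to 5420 CPM in the total ones, and the nuclear RNA MALAT1 was at 377 to 940 and at 824 to 2720 CPM.

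AARS2 and LARS2, the mitochondrial alanyl and leucyl enzymes, were at least 2-fold lower in the cytosolic fraction (8.29% of all genes). AARS2 was at 43.1 and 42.9 CPM in the cytosol of CTRL cells and at 94.4 and 69.7 CPM in their total RNA, at 37.2 and 35.3 against 90.2 and 87.9 CPM in ADAR-targeted cells, at 39.4 and 48.9 against 92.1 and 102 CPM in hnRNPC-targeted cells, and at 32.4 and 32.8 against 68.5 and 68.1 CPM in doubly targeted cells (−1.11 ± 0.069, adjusted p = 3.7e-10). LARS2 was at 23 and 28.8 against 63.6 and 53.2 CPM in CTRL, 32.2 and 32 against 66.3 and 71.6 CPM in ADAR-targeted, 22.5 and 32.5 against 57.2 and 66.2 CPM in hnRNPC-targeted, and 31.5 and 32.3 against 56.2 and 56.4 CPM in doubly targeted cells (−1.07 ± 0.082, adjusted p = 6.1e-09). In both genes every cytosolic library was below every total library. VARS2 followed with −0.92 ± 0.085, at 4.06 and 4.22 CPM in the cytosol and 8.66 and 6.21 CPM in total RNA of CTRL cells. FARSB (0.46 ± 0.058), GARS1 (0.41 ± 0.054) and YARS1 (0.39 ± 0.063) had the highest cytosolic values, with FARSB at 123 and 106 CPM in the cytosol and 80.8 and 79 CPM in total RNA of CTRL cells. Without CTRL total replicate 1, 17 members were higher in the cytosol.

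Against the nuclear-enriched fraction of hnRNPC-targeted cells, 11 members were higher and 6 lower in the cytosol (45.2% and 25.8% of all genes), and 3 mitochondrial enzymes were at least 2-fold lower (15%). LARS2 was at 22.5 and 32.5 CPM in the cytosol and at 90.2 and 70.9 CPM in the insoluble fraction (−1.55 ± 0.17), AARS2 at 39.4 and 48.9 against 121 and 104 CPM (−1.35 ± 0.14), and VARS2 at 2.89 and 2.88 against 7.41 and 6.78 CPM (−1.30 ± 0.17). The highest were NARS2 at 13.5 and 13.8 against 7.78 and 9.06 CPM (0.70 ± 0.15), PARS2 at 9.64 and 9.33 against 5.74 and 6.14 CPM (0.67 ± 0.19), and KARS1 at 269 and 331 against 191 and 194 CPM (0.64 ± 0.14). The insoluble fraction holds both nuclei and mitochondria, so that a nuclear and a mitochondrial location cannot be told apart.

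**Figure D3:**
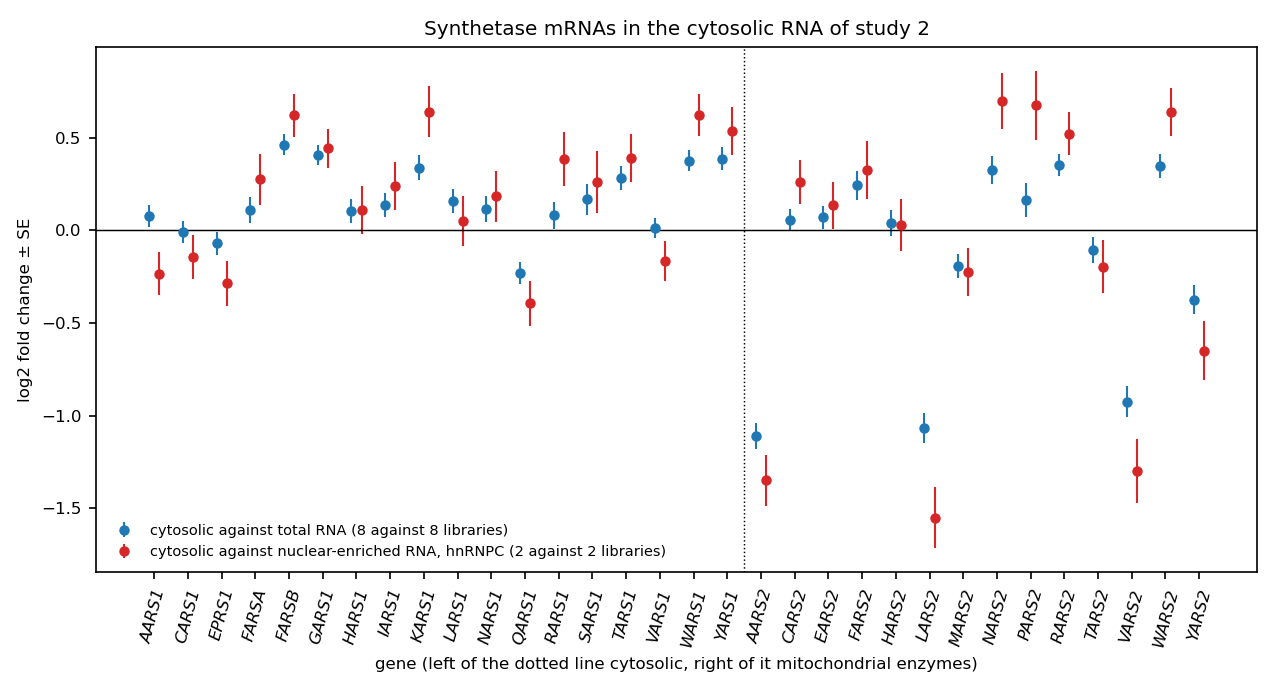
Log2 fold change with its SE of 32 synthetase genes between the cytosolic fraction and total RNA (8 against 8 libraries) and between the cytosolic and the nuclear-enriched fraction of hnRNPC-targeted cells (2 against 2). LARS2, AARS2 and VARS2 lie lowest in both (−0.92 to −1.55), apart from the other genes.

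Reads in introns were counted in study 1. The members have 543 introns in the table, of which 496 lay alone in 1 protein-coding gene and 98, in 24 members, had enough reads to test. On day 5, 4 were at least 2-fold higher and 6 lower after hnRNPC targeting (4% and 2.35% of all introns tested), and 10 in 8 genes were higher and 7 lower in doubly targeted cells (5.49% and 8.03%). IFN-α changed none of them by edgeR or limma-voom at that threshold.

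Introns of RARS1, QARS1 and KARS1 rose after hnRNPC targeting, in which none of these 3 genes rose. In RARS1, the cytosolic arginyl enzyme, an intron near the 5′ end (GRCh37, chromosome 5, 167913550 to 167915606) was at 1.77, 1.49 and 1.4 CPM in CTRL on day 5, at 5.35, 4.96 and 4.42 CPM in hnRNPC-targeted and at 3.71, 4.02 and 3.87 CPM in doubly targeted cells (1.66 and 1.31), while the gene stood at −0.35 ± 0.056 in doubly targeted cells. In QARS1 an intron (chromosome 3, 49133514 to 49135424) was at 2.39, 2.15 and 2.18 CPM in CTRL and at 7.24, 6.35 and 6.63 CPM after hnRNPC targeting (1.59), with 3.33, 3.82 and 3.08 CPM in doubly targeted cells. In KARS1 an intron (chromosome 16, 75678362 to 75681475) was at 1.77, 1.73 and 1.86 CPM in CTRL, 4.13, 3.73 and 4.18 CPM after hnRNPC targeting (1.17) and 5.54, 5.96 and 6.58 CPM after both (1.76), where the KARS1 gene was higher by 0.28 ± 0.058. In all 3 introns the ADAR-targeted libraries lay at 1.62 to 2.38 CPM, close to CTRL.

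In doubly targeted cells introns of members whose gene was also higher rose. In CARS1 an intron (chromosome 11, 3028191 to 3033424) was at 1.79, 1.34 and 2.48 CPM in CTRL and at 6.86, 6.66 and 8.95 CPM in doubly targeted cells (2.00), and in WARS1 an intron (chromosome 14, 100835597 to 100840472) was at 2.38, 1.54 and 3.35 CPM and at 5.83, 5.77 and 9.71 CPM (1.55). An intron each of SARS1 and GARS1, 2 of YARS1 and 2 of IARS1 were also higher, by 1.02 to 1.72, and of these genes IARS1 itself did not pass the test (−0.08 ± 0.066).

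LARS1 had the lowest intron values. Its intron on chromosome 5 from 145492602 to 145493405 was at 13.2, 13.5 and 13.8 CPM in CTRL, 2.6, 3.22 and 3.67 CPM in hnRNPC-targeted and 4.06, 4.03 and 4.25 CPM in doubly targeted cells (−2.09 and −1.71), and 4 further LARS1 introns were lower after hnRNPC targeting (−1.09 to −1.59). It had been lower on day 3 (−1.07) and day 4 (−1.53). FARSA had 4 introns lower in doubly targeted cells (−1.05 to −1.51).

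**Figure D4:**
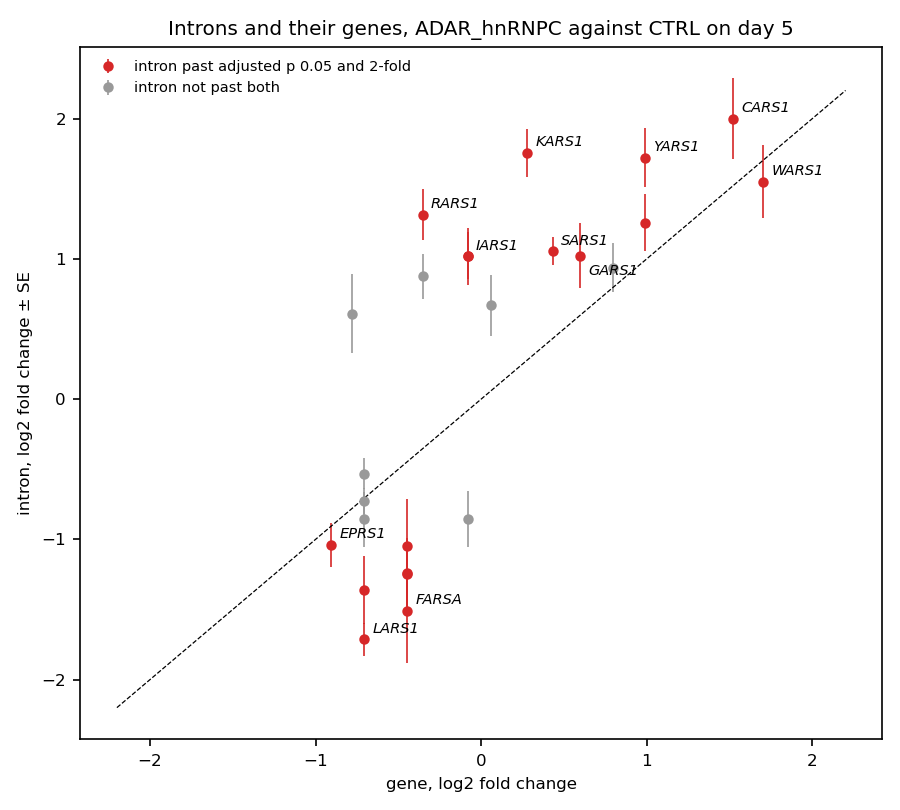
Log2 fold change with its SE of introns in synthetase genes (vertical) against that of their gene (horizontal), doubly targeted against CTRL cells on day 5. Red points are introns at least 2-fold changed at an adjusted p of at most 0.05, grey points other introns that were called in another comparison, and the dashed line marks equal change; the KARS1 and RARS1 introns lie far above it.

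Clusters of editing sites extended by 1 kb and merged (editing cluster regions, ECRs) were counted as well. Of 12 ECRs in 9 members 11 were tested. After hnRNPC targeting 3 were at least 2-fold lower on day 5 (4.31% of all ECRs), 2 in LARS1 (−1.19 and −1.27) and 1 in FARSA (−1.38), and in doubly targeted cells the 1 in FARSA (−1.55, 10.4% of all ECRs).

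Editing itself, the share of reads with G at listed adenosines, was lower in ADAR-targeted cells. The authors listed only sites that passed a minimum editing frequency, among other filters, in some sample with ADAR intact. A lower share after ADAR targeting is therefore partly built into the list, and the size of that part was not tested. At least 10 reads in every library were found at 57 sites in 6 members. There it was 2.80%, 2.93% and 2.47% in CTRL on day 5, 1.26%, 0.889% and 0.763% in ADAR-targeted, 1.52%, 1.82% and 1.66% in doubly targeted, and 4.56%, 3.33% and 3.60% in hnRNPC-targeted libraries (1471 to 3357 reads per library). None of these groups overlapped CTRL on day 5, though 3 against 3 libraries cannot give an exact permutation p below 0.1. The GFP-targeted libraries of day 5 (1361 to 2568 reads) were at 2.45%, 1.69% and 3.34%. Their range overlapped CTRL, the doubly targeted and the hnRNPC-targeted libraries, and lay above the ADAR-targeted ones. On day 4 CTRL was at 2.23%, 1.68% and 3.78% and overlapped the doubly targeted and hnRNPC-targeted libraries, but not the ADAR-targeted ones. Over all 1454 sites in 21 members, with no minimum of reads (a set added after the data were seen), the day 5 ranges were 3.05% to 3.23% in CTRL, 1.26% to 1.62% in ADAR-targeted, 1.72% to 2.03% in doubly targeted and 3.48% to 3.88% in hnRNPC-targeted cells, and IFN-α gave a mean of 4.5% on day 4 against 3.03% in CTRL.

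LARS1 and RARS2 held many of these sites. The shares given here pool the reads of all sites and of the 3 replicates. LARS1, over 189 sites, was edited at 5.13% in CTRL, 6.79% after hnRNPC, 2.64% after ADAR and 4.45% after double targeting on day 5, and RARS2, over 130 sites, at 4.49%, 6.69%, 1.47% and 2.59%. YARS2, with the most sites (300), was edited at 1.54%, 1.71%, 0.601% and 0.877%.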

How the data were processed

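Strand-specific, ribosomal RNA-depleted libraries were sequenced as paired reads, and the authors aligned them to GRCh37 with STAR 2.5.4a and counted uniquely mapping reads with featureCounts. The deposited tables hold raw read counts per gene (GENCODE v19), per intron (study 1), per ECR, and per editing site, as total and G counts. The strand setting of the counting is not given in the sources used here. The rule for the members uses no measured value, but the family and the lists were chosen with earlier results of these data known.

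Counts were analysed with edgeR 4.0.16 (R 4.3.3), TMM normalization and the quasi-likelihood test, with all libraries of a study in 1 model. Genes with an average log2 CPM of at least 0.5 were kept, 13193 in study 1 and 13650 in study 2, which left out SARS2 in study 2. Introns (21798 tested) needed an average of at least 1 and ECRs (2528) of at least 4.5, with introns scaled to gene totals. A gene passed the test at a Benjamini-Hochberg adjusted p of at most 0.05 over all genes tested, and 2-fold calls needed in addition a log2 fold change of at least 1 in size. Fold changes are log2 values ± SE, CPM are TMM-normalized, and lists of 2 or 3 CPM give replicates 1 to 3 in order. Depth limits counting error only. On simulated counts, 77% of genes changed by 0.5 and 100% of those changed by 1.5 on the log2 scale were recovered for hnRNPC against CTRL on day 5, and 39% and 100% for double targeting in total RNA of study 2, with false shares of 3.8% and 4.79% among calls. The simulation gave every gene the same dispersion, had no replicate effect and changed 100 genes by each size. Many more genes passed in the real comparisons, so these shares check the code and do not give the power or error rate in these data.

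Named with values were members called at 2-fold in any comparison and the 3 highest and 3 lowest members of each main comparison. Alternatives were limma-voom (limma 3.58.1, the study's own test), DESeq2 1.42.0, no filter, a replicate block, GFP as control and leaving out libraries. Shares of all genes were not computed for fits of study 2 that left out a library. Replicate numbers come from the labels. Same-numbered libraries deviated together (all 3 correlations over 0.1) in study 1 for hnRNPC, ADAR and GFP targeting on days 4 and 5 and for double targeting on days 3 and 4, each against CTRL, and not in the other comparisons with CTRL. Study 2 has 2 replicates and gives no such check. Gene positions and exon overlap came from GENCODE v44 lifted to GRCh37, names from Ensembl identifiers and promoter windows from RefSeq. GENCODE v19 itself was not used here.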

Additional observations from a re-analysis of the deposited data

Results flagged for a closer look

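The effect of hnRNPC targeting differed with and without ADAR targeting, by edgeR's test of the interaction, for 2 members on day 4 and 17 on day 5. Values are on the log2 scale, over 3 replicates a group, as double minus the sum of both single effects.

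On day 4 the 2 members lay below that sum, QARS1 at −0.27 and RARS1 at −0.27. That count changed with the fit: it was 5 with the replicate number as a block, 4 with DESeq2, and 0 with no filter or in a fit of day 4 alone.

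On day 5 the cytosolic members above it were WARS1 at 1.86, CARS1 at 1.33, GARS1 at 1.13, YARS1 at 0.96, SARS1 at 0.77, LARS1 at 0.71, AARS1 at 0.68, TARS1 at 0.44, KARS1 at 0.40 and IARS1 at 0.36. The mitochondrial ones were FARS2 at 0.31, EARS2 at 0.30 and YARS2 at 0.27. Those below it were QARS1 at −0.74, AARS2 at −0.50, CARS2 at −0.37 and HARS1 at −0.31. LARS1 differs in kind from WARS1 and CARS1: it was lower than CTRL in both hnRNPC-targeted and doubly targeted cells, and the positive value stands for the smaller fall in the latter. CTRL replicate 3 of day 5 enters each of these values; without it CARS1 stood at 0.98 and GARS1 at 0.76, and without it and ADAR replicate 3 at 1.16 and 0.90.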

How the results depend on the processing

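Of 596 recomputed counts 509 stayed within 1.5 times the value reported and 87 did not, and of 224 recomputed fold changes of members called at 2-fold 216 stayed on their side of the threshold, 8 no longer reached it and 0 changed sign. Those 8 were CARS1 (0.98) and GARS1 (0.76) in the interaction of day 5 without CTRL replicate 3, CARS1 with ADAR targeting in total RNA (0.99 with DESeq2 and 0.95 without a library), VARS2 in doubly against ADAR-targeted cells with DESeq2, and SARS1 (0.97) and WARS1 (0.93 and 0.97) in the cytosolic fraction of doubly targeted cells without a library. Without CTRL replicate 3 and ADAR replicate 3 of day 5, left out together after seeing the data, VARS2 in doubly against ADAR-targeted cells (−0.99) and GARS1 in the interaction (0.90) also fell short. The cause was not tested.

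With DESeq2, members higher came to 3 for ADAR on day 5, 6 for double targeting on day 3, 5 for hnRNPC on day 3, 2 for the interaction on day 4 and 1 for hnRNPC in total RNA of study 2, and members lower to 2 for ADAR on day 5, 2 for IFN-α, 4 for the interaction on day 4, 11 for the cytosolic against the nuclear-enriched fraction and 1 for hnRNPC in the cytosolic fraction. With limma-voom the count for hnRNPC in total RNA was 1. With no filter, members higher were 0 for ADAR on day 4, 1 on day 5, 4 for double targeting on day 3, 1 for hnRNPC on day 3, 2 for the interaction on day 4 and 1 for hnRNPC in total RNA, and members lower 0 for IFN-α, 0 for the interaction on day 4 and 4 for double targeting in the cytosolic fraction. Against GFP-targeted cells, members higher were 0 for ADAR on day 4, 1 on day 5 and 5 for hnRNPC on day 5, and 0 were lower for ADAR on day 5. In a fit of the 12 libraries of day 4 alone the interaction gave 1 higher and 0 lower. With the replicate block, members higher were 2 for ADAR on day 5, 5 for double targeting on day 3, 2 for the interaction on day 4 and 1 for hnRNPC in total RNA, members lower 2 for ADAR on day 5, 2 for IFN-α and 5 for the interaction on day 4, and no other count over all members moved by over 1.5 times. With crossed pairs, chosen after seeing the data, hnRNPC in total RNA gave 1 higher and the cytosolic against the nuclear-enriched fraction 11 higher and 7 lower. With introns kept from an average log2 CPM of 0, double targeting raised 9 introns by day 4 and 22 by day 5, with 15 lower by then, and hnRNPC targeting gave 17 lower ones at day 5.

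Leaving out single libraries gave, for members higher, 0 to 1 for ADAR on day 4, 0 to 4 on day 5, 3 to 7 for hnRNPC on day 5, 3 to 9 for IFN-α, and in study 2, 4 to 7 for ADAR in the cytosol, 4 to 19 in total RNA, 6 to 10 for double targeting in the cytosol, 10 to 17 for cytosolic against total RNA and 0 to 11 for hnRNPC in total RNA. For members lower it gave 0 to 4 for ADAR on day 5, 0 to 2 for IFN-α, 1 to 6 for the interaction on day 4, and 0 to 4 in the cytosol and 0 to 8 in total RNA for double targeting in study 2. Introns higher were 0 to 1 for double targeting on day 3 and 3 to 6 for hnRNPC on day 4, and introns lower 0 to 1 and 1 to 4 for double targeting on days 3 and 4 and 0 to 1 and 1 to 2 for hnRNPC on days 3 and 4. Editing depends on the read minimum: at 20 reads 5 sites in 2 members remained, with means of 0% to 1.01%, so that the order of groups could not be read there.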

Other observations

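Over the 16 group means of study 1, the 5 genes whose log2 CPM followed WARS1 most closely, of 13193 tested, were MLKL (Pearson r = 0.973), TMEM62 (0.969), BLTP3A (0.965), PDE4B (0.964) and NSUN6 (0.962). MLKL executes necroptosis and is known to respond to interferon. Among the synthetases the closest to WARS1 were YARS1 (0.863), GARS1 (0.844), AARS1 (0.825) and CARS1 (0.814). CARS1 was in turn closest to YARS1 (0.986), AARS1 (0.965), GARS1 (0.911) and FARS2 (0.908), and farthest from RARS1 (−0.874), QARS1 (−0.844) and NARS1 (−0.824). The points share libraries and the day 5 doubly targeted group, and the values are descriptions over groups.

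Outside the synthetases, 9 of 11 tested factors that help tRNA charging were higher and 0 lower in cytosolic than in total RNA, where 49.3% of all genes were higher and 27.2% lower. Against the nuclear-enriched fraction 9 were again higher and 0 lower, beside 45.2% and 25.8% of all genes. In doubly targeted cells on day 5, AIMP2 (0.45), a scaffold of the multisynthetase complex, and the tRNA exporter XPOT (0.36) were higher, and DTD1 (−0.68), a proofreading deacylase, and GATB (−0.47), a subunit of the mitochondrial glutamyl-tRNA amidotransferase, were lower.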
